A study of Rattus norvegicus with 18 samples.

Results

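The genes described here were grouped under salt transport in the thick ascending limb and the distal convoluted tubule of the kidney. They are the cotransporters Slc12a1, Slc12a3 and Slc12a2, the potassium channel Kcnj1, the kinases Stk39 and Wnk1, and the segment proteins Umod and Sostdc1. Of these, Slc12a2 is known in the kidney from the inner medullary collecting duct rather than the thick limb. Every probe set whose platform annotation gave exactly 1 gene symbol, and that symbol one of these 8, was taken. That gave 20 probe sets out of 26202 that were not controls, and 8 genes out of 10969. The members were chosen by name and not by a cut on their values. Earlier results of these data were known when they were chosen.

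RNA came from kidneys of congenic rats (3 samples) and of Dahl salt-sensitive (S) rats (3 samples). The Dahl S rat is an inbred strain that becomes hypertensive on salt, and the congenic rat has part of chromosome 9 of a salt-resistant (R) strain bred into the same S background, a part that by the series title holds a quantitative trait locus for blood pressure. The 2 groups thus share most of their genome. The labels used here give no age, sex, diet or treatment, and no label says outright that the samples are separate animals, so the error behind each p-value is the sample-to-sample spread and could be technical. Arrays of 3 types (A, B and C below) were run on every sample, 18 in all, and each gives 1 intensity per probe set, here called its signal.

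Sodium chloride enters the cells of the thick ascending limb through the cotransporter NKCC2 (Slc12a1), the target of loop diuretics, while potassium returns to the lumen through the channel ROMK (Kcnj1). In the distal convoluted tubule the thiazide-sensitive cotransporter NCC (Slc12a3) does this work. Both cotransporters are switched on by phosphorylation through the kinase SPAK (Stk39), which WNK kinases such as Wnk1 activate. Such control acts on proteins, which the arrays do not measure.

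None of the 8 genes differed between the strains past the adjusted threshold. Limma, a linear model with a spread shared across probe sets, tested 15 of the 20 member probe sets and called 0 at an adjusted p of 0.05, where it called 0 of all 15721 tested (0%). All 15 had an adjusted p of 0.9997. At an unadjusted limma p under 0.05 there was 1 member probe set, in Stk39, against 2.49% of all tested probe sets. The congenic mean was higher in 11 of the 15 and lower in 4, with a median log2 difference of +0.10, beside 49.5% higher and a median of -0.004 over all tested probe sets. The count of higher members was 13 without congenic sample 2, 8 without congenic sample 3 and 10 without both samples numbered 1. The members' median was +0.17 without congenic sample 2, +0.16 without congenic sample 1 or Dahl S sample 1, and +0.044 without congenic sample 3.

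The strains were fully separated, with no overlap of their values, in 3 of the 15 tested member probe sets, against 7.08% of all tested probe sets. The congenic values were higher in 2 of them, against 3.59% of all tested, and lower in 1, against 3.49%. A test needed a mean log2 signal above the 40th percentile of the array type, which corresponds to a signal of 21.2, 39.3 and 37.7 on types A, B and C. The 5 member probe sets that missed this level, 4 of Slc12a2 and 1 of Wnk1, are given by their values alone. Because the samples are whole kidney, fewer cells of a segment and less RNA per cell cannot be told apart in any of these values.

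**Figure D1:**
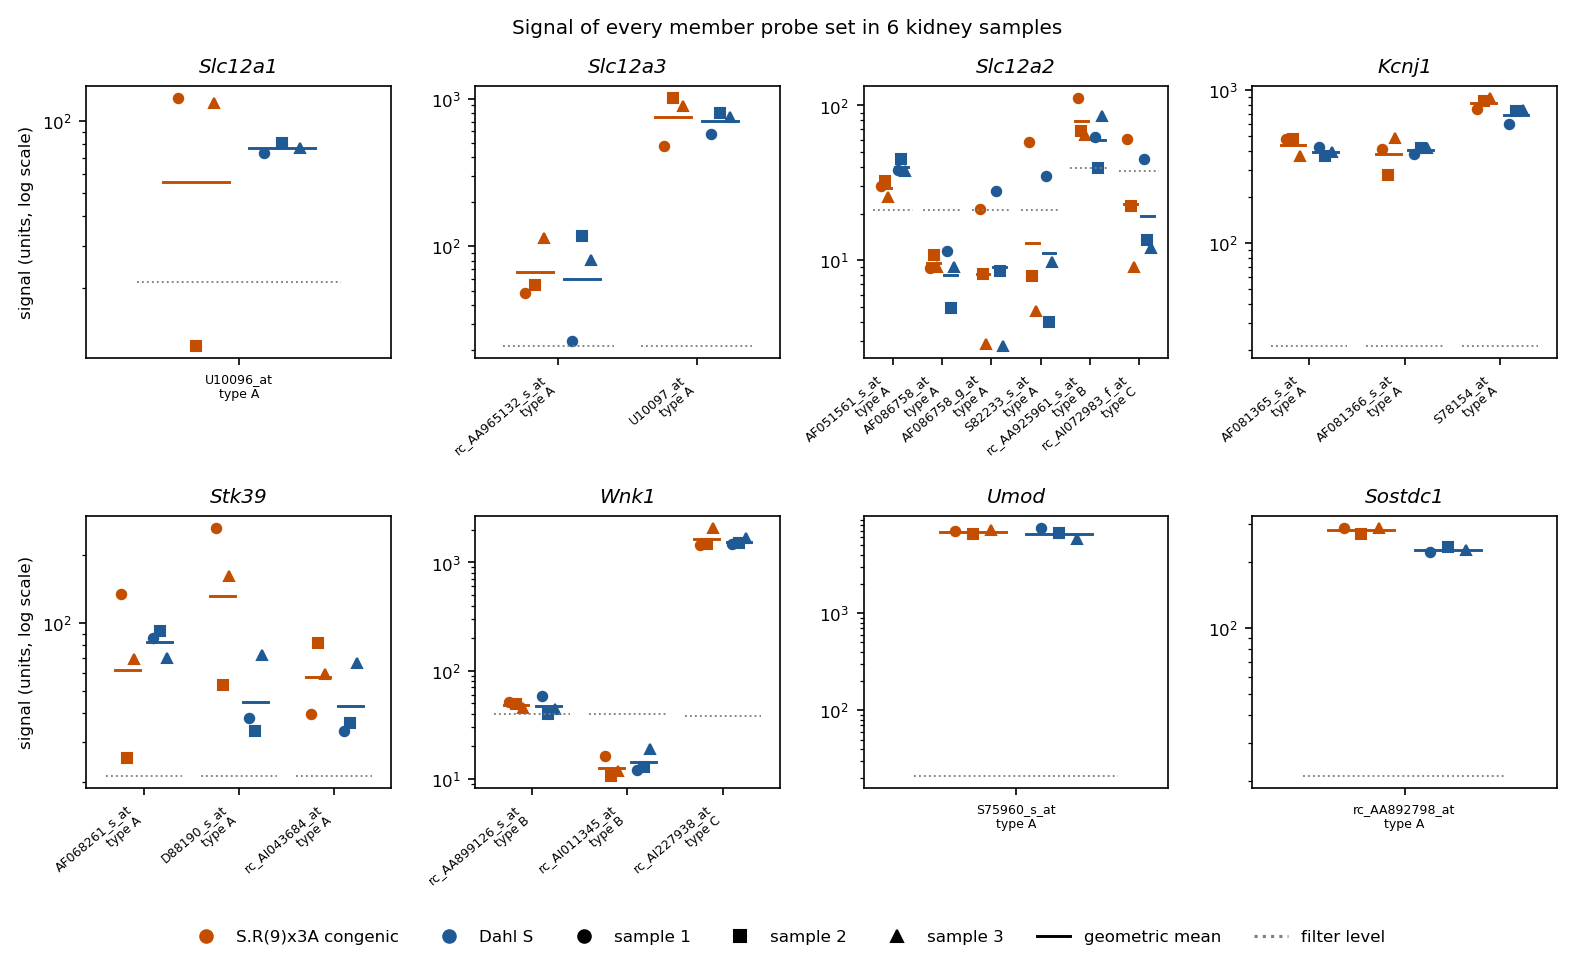
Signal (linear units on a log axis) of all 20 member probe sets in the 3 congenic samples (orange, left) and 3 Dahl S samples (blue, right). Symbols give the sample number, bars the geometric mean, and dotted lines the filter level of the array type. The Sostdc1 groups do not overlap, and the single low Slc12a1 value is congenic sample 2 at 11.4.

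In both strains sample 1 differed from samples 2 and 3 in a shared way. Over all probe sets that were not controls, both samples numbered 1 lay above the other 4 in 19.5% and below them in 9.73%. Among the 20 member probe sets this was so in 4 and 3. The ratio of 3 prime to 5 prime signal of the control transcripts, a measure of RNA or labelling quality, was also lowest in these samples. For beta-actin the log2 ratio was 0.50, 1.07 and 1.35 in congenic samples 1, 2 and 3, against 0.49, 1.07 and 1.10 in Dahl S samples 1, 2 and 3. For GAPDH it was 0.11, 0.54 and 0.63 in congenic samples, against 0.31, 0.65 and 0.68 in Dahl S samples. The strain means of these ratios differed by +0.09 for beta-actin (exact two-sided permutation p = 0.7) and -0.12 for GAPDH (exact two-sided permutation p = 0.5). With 3 samples a strain the smallest such p is 0.1. Their part in the member values was not tested. The median signal of an array lay between 34.8 and 45.9 on type A, between 60.4 and 78.5 on type B, and between 61.1 and 75.6 on type C. On every type it was highest in the samples numbered 1. Congenic and Dahl S sample 1 had 45.9 and 45.5 on type A, 78.3 and 78.5 on type B, and 75.6 and 74.6 on type C.

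Umod and Kcnj1 served to check that the tissue holds a thick ascending limb, and Slc12a3 and Sostdc1 a distal convoluted tubule. The main probe sets of all 4 were above the filter level in all 6 samples. Slc12a1, also a thick limb marker, was below it in congenic sample 2 (11.4, against a level of 21.2). Parvalbumin (Pvalb), a calcium-binding protein of the early distal convoluted tubule, was below it in 4 of 6 samples and was not tested. No probe set had the marker Cldn16 or Trpm6 as its only gene symbol.

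Slc12a1 was read by 1 probe set, U10096_at on type A. Its signal was 123.9, 11.4 and 118.8 in the congenic samples, against 72.9, 80.6 and 77.1 in the Dahl S samples. Congenic samples 1 and 3 lay above every Dahl S sample and congenic sample 2 far below, under the filter level of 21.2, so the size of that gap is uncertain. The log2 difference was -0.48 (SE 0.83, limma, n = 3 per strain, 95% interval -2.39 to 1.44). Without congenic sample 2 it was +0.66 (SE 0.23, adjusted p = 0.9992), so the direction rests on that sample. The lowest adjusted limma p of any member under the alternatives and left-out samples was 0.9231.

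Within the same array type, the genes whose log2 signal followed Slc12a1 most closely over the 6 samples were Rpl27, a ribosomal protein (Pearson r = 0.991), Ddost, a subunit of the glycosylation complex of the endoplasmic reticulum (0.987), and Gstk1, a glutathione transferase (0.985), out of 2602 genes. Each of them was lowest in congenic sample 2, as Gstk1 showed with 585.6, 177.9 and 472.9 in congenic samples and 449.6 to 457.6 in Dahl S samples. They were picked for likeness to Slc12a1, which was lowest there, so their low value in that sample is no separate evidence. Among the other thick limb members on type A, Kcnj1 AF081366_s_at was also lowest in congenic sample 2, while Kcnj1 S78154_at, Kcnj1 AF081365_s_at and Umod were each lowest in a Dahl S sample. Slc12a1 had r = -0.24 with Kcnj1 S78154_at and 0.26 with Umod. The r values of Rpl27, Ddost and Gstk1 are the highest of 2602. All r values rest on only 6 samples, which share the strain and sample number differences, and are a description only.

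Kcnj1 was read by 3 probe sets of type A. S78154_at gave 755.2, 846.1 and 881.6 in congenic samples and 603.9, 731.5 and 744.3 in Dahl S samples. All congenic values were above all Dahl S values, but by a small margin: the log2 difference was +0.26 (SE 0.15, 95% interval -0.08 to 0.59). AF081365_s_at gave 476.0, 477.3 and 369.8 in congenic samples and 422.1, 367.6 and 396.0 in Dahl S samples (+0.15, SE 0.16). AF081366_s_at gave 413.5, 279.3 and 485.7 in congenic samples and 382.3, 415.4 and 418.1 in Dahl S samples (-0.08, SE 0.22). These last 2 overlapped, and the sign of AF081366_s_at turned without congenic sample 2 (+0.15). The suffix _s_at marks probe sets whose probes may match more than 1 transcript.

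Umod encodes uromodulin, the protein that thick limb cells secrete into the urine in the largest amount. Its probe set S75960_s_at gave 7039.2, 6513.6 and 7154.1 in congenic samples, against 7455.6, 6595.9 and 5763.4 in Dahl S samples. The groups overlapped, and the highest and lowest of the 6 samples differed by 1.29-fold. Its log2 difference was +0.07 (SE 0.14, 95% interval -0.25 to 0.39), and -0.02 under quantile normalization, so no direction can be given. A difference beyond 0.39 log2 units lies outside that interval.

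Slc12a3 was read by 2 probe sets of type A. U10097_at gave 480.5, 1003.7 and 894.8 in congenic samples and 574.0, 803.8 and 755.2 in Dahl S samples. The samples numbered 1 were the lowest in each strain, below all 4 others, and the strains overlapped (log2 difference +0.10, SE 0.28, 95% interval -0.54 to 0.75). The second probe set, rc_AA965132_s_at, gave 48.3, 54.9 and 114.1 in congenic samples and 22.8, 116.8 and 80.6 in Dahl S samples (+0.17, SE 0.62). It too was lowest in both samples numbered 1. Without those 2 samples the probe sets stood at +0.28 and -0.29, so they did not share a direction. The closest patterns to U10097_at among 2602 genes of type A were those of the water channel Aqp1 (Pearson r = 0.985 over 6 samples), the exchange factor Rapgef3 (0.982) and the G protein regulator Rgs12 (0.978). Aqp1, a proximal tubule and thin limb protein, read 2298.8, 3257.3 and 3037.8 in congenic samples and 2404.7, 2818.3 and 2900.1 in Dahl S samples. It was again lowest in the samples numbered 1, but it was picked for likeness to U10097_at, so this is no separate evidence.

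Sostdc1, a secreted antagonist of bone morphogenetic proteins made by distal tubule cells, had the tightest values of the members. Its probe set rc_AA892798_at gave 285.2, 270.2 and 285.7 in congenic samples, against 222.5, 235.5 and 227.5 in Dahl S samples. All congenic values were above all Dahl S values, and the spread within each strain was 0.05 and 0.04 log2 units (SD, n = 3 each) beside a median of 0.35 over all tested probe sets. The log2 difference was +0.30 (SE 0.15, 95% interval -0.06 to 0.65) in limma, which draws a small spread toward that of other probe sets of like signal. It ran from +0.28 to +0.32 with each sample left out in turn. The unadjusted limma p was 0.0882, and 0.00705 where dim probe sets were not filtered out (adjusted p = 1.0 there).

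**Figure D2:**
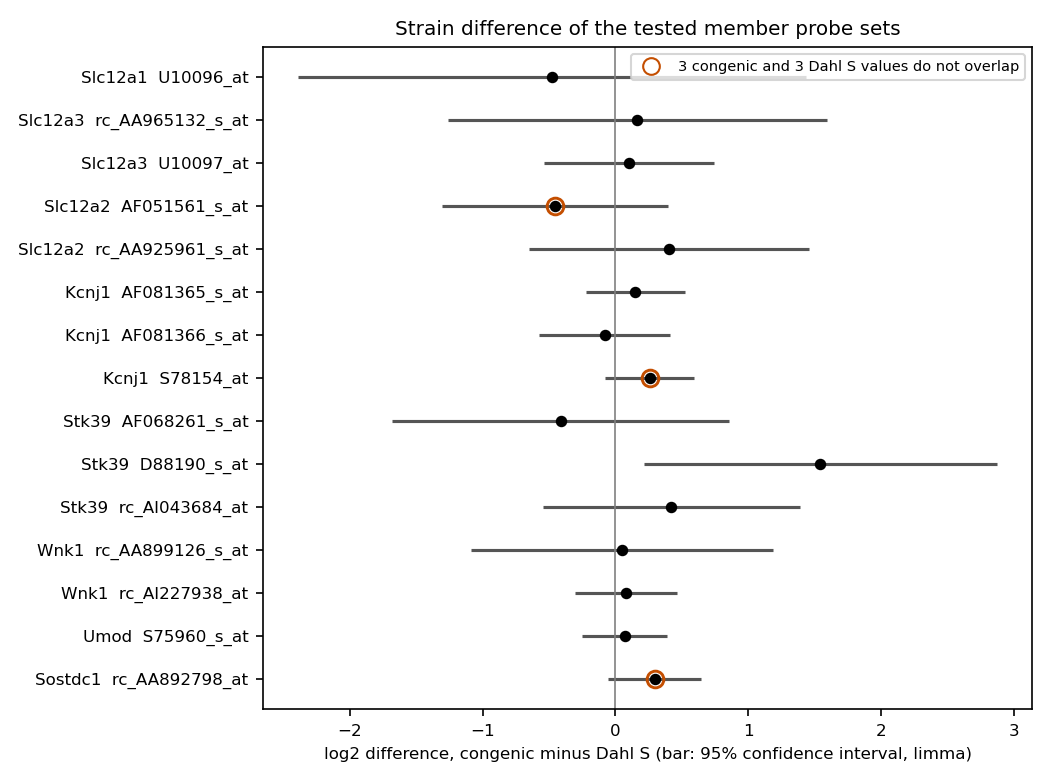
Log2 difference, congenic minus Dahl S, of the 15 tested member probe sets (point) with its 95% confidence interval in limma (bar). Circles mark the 3 probe sets whose strain values do not overlap. The interval holds 0 in 14 of 15, the exception being Stk39 D88190_s_at, which did not pass the adjusted threshold.

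Stk39, the kinase SPAK, had 3 probe sets on type A that disagreed. D88190_s_at gave 262.3, 53.5 and 162.3 in congenic samples, against 38.0, 33.5 and 72.1 in Dahl S samples. Congenic samples 1 and 3 were above all Dahl S samples and congenic sample 2 was not, so the groups overlapped. This was the largest log2 difference among the members, +1.54 (SE 0.58, 95% interval 0.21 to 2.88, with an unadjusted limma p of 0.0280). It was +1.05 without congenic sample 1, +0.92 without both samples numbered 1 and +2.19 without congenic sample 2.

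The other Stk39 probe sets did not show a difference of that size. AF068261_s_at gave 134.8, 25.3 and 69.6 in congenic samples and 86.4, 92.6 and 70.0 in Dahl S samples (-0.41, SE 0.55). It too was lowest in congenic sample 2, and without that sample its difference was +0.23. rc_AI043684_at gave 39.8, 82.1 and 59.5 in congenic samples and 33.3, 36.3 and 67.0 in Dahl S samples (+0.42, SE 0.42), with congenic sample 2 the highest. The sources used here do not say which Stk39 transcripts each probe set reads. The closest patterns to D88190_s_at were those of Ndufa4, a subunit of the respiratory chain (Pearson r = 0.929 over 6 samples, 2602 genes), Tcp11l2 (0.925) and the peroxisomal thiolase Acaa1b (0.923). Of the other members on type A, Sostdc1 ranked highest by that measure (0.782).

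Wnk1, the kinase upstream of SPAK, had its brightest probe set on type C. This probe set, rc_AI227938_at, gave 1462.4, 1493.1 and 2072.9 in congenic samples and 1487.0, 1530.2 and 1680.3 in Dahl S samples. The strains overlapped (log2 difference +0.08, SE 0.17, 95% interval -0.30 to 0.47), and without congenic sample 3, the highest of the 6, the sign turned (-0.08). On type B, rc_AA899126_s_at gave 51.5, 49.3 and 44.7 in congenic samples and 58.7, 39.7 and 44.1 in Dahl S samples (+0.05, SE 0.51). There the samples numbered 1 were above the other 4, whereas on type C they were below them. The third probe set, rc_AI011345_at, stayed between 10.6 and 18.7 in all 6 samples, under the filter level of type B.

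Slc12a2 encodes NKCC1, the cotransporter of basolateral membranes and secretory epithelia, which in the kidney is known from the inner medullary collecting duct rather than the thick limb. It had 6 probe sets on the 3 array types, and 2 were tested. AF051561_s_at gave 30.3, 32.6 and 25.8 in congenic samples and 38.6, 44.9 and 37.7 in Dahl S samples. All congenic values were lower, near the dim end of what was tested (log2 difference -0.45, SE 0.37, 95% interval -1.31 to 0.40). On type B, rc_AA925961_s_at gave 111.1, 68.1 and 64.9 in congenic samples and 62.8, 39.3 and 85.5 in Dahl S samples, an overlap with the opposite sign (+0.41, SE 0.47).

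The dim Slc12a2 probe sets followed sample number more than strain. S82233_s_at gave 57.8, 7.9 and 4.7 in congenic samples and 35.2, 4.0 and 9.7 in Dahl S samples. AF086758_g_at gave 21.6, 8.2 and 2.9 in congenic samples and 28.1, 8.5 and 2.8 in Dahl S samples. rc_AI072983_f_at on type C gave 60.4, 22.6 and 9.0 in congenic samples and 45.1, 13.5 and 12.0 in Dahl S samples. In all 3 the samples numbered 1 were above the other 4. AF086758_at showed no such step, with 4.9 to 11.5 in the 6 samples.

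**Figure D3:**
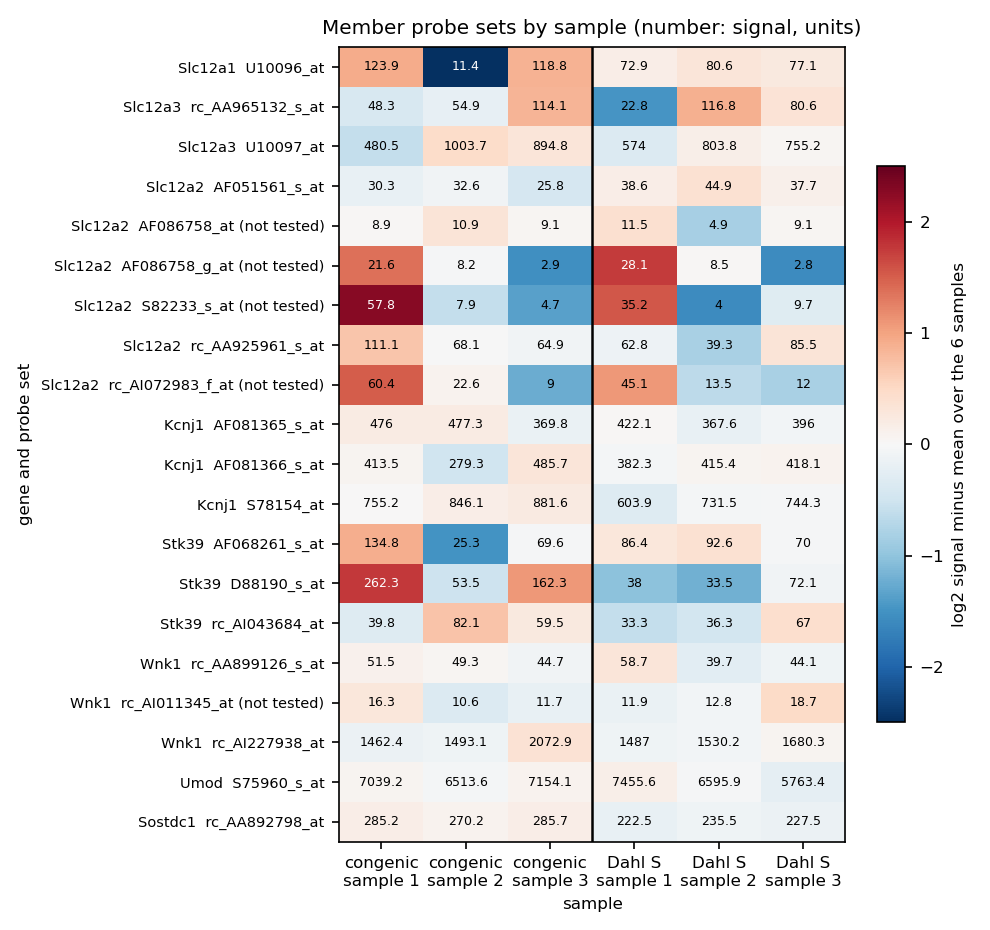
Log2 signal of each member probe set minus its mean over the 6 samples (colour), with the signal printed in each cell, congenic samples left and Dahl S samples right. Both samples numbered 1 are high in 3 dim Slc12a2 probe sets and low in both Slc12a3 probe sets, and congenic sample 2 is low for Slc12a1 and for Stk39 AF068261_s_at.

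Leaving out 1 sample turned the sign of 8 of the 15 tested member probe sets at least once, and the sign of the other 7 held. The members whose sign held with every sample left out in turn were Sostdc1, Slc12a2 AF051561_s_at (-0.53 to -0.36), Slc12a2 rc_AA925961_s_at (+0.11 to +0.67), Kcnj1 S78154_at (+0.16 to +0.32), Kcnj1 AF081365_s_at (+0.09 to +0.27), Stk39 D88190_s_at (+1.05 to +2.19) and Stk39 rc_AI043684_at (+0.17 to +0.74). None of them passed the adjusted threshold in any such fit.

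**Figure D4:**
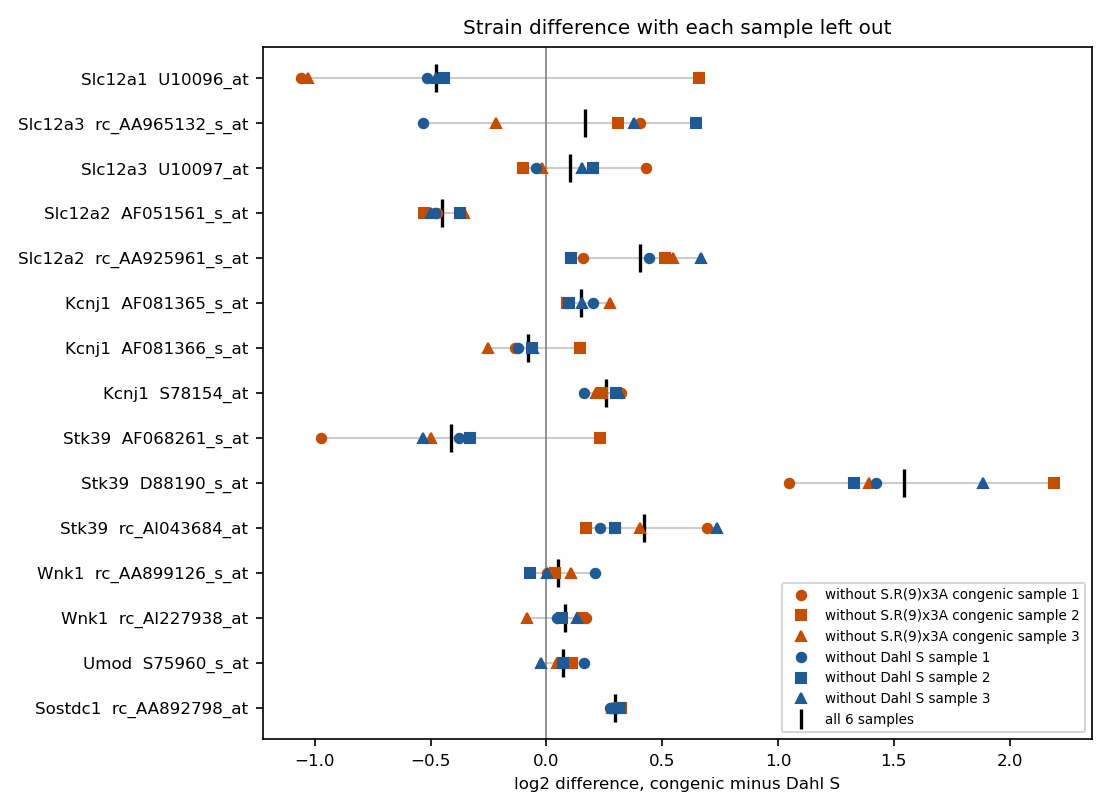
Log2 difference, congenic minus Dahl S, of the 15 tested member probe sets with all 6 samples (black bar) and with each sample left out (symbols, coloured by strain). Slc12a1 stands at -0.48 with all samples and at +0.66 without congenic sample 2, while Sostdc1 stays between +0.28 and +0.32.

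The other genes of the pathway were followed in 4 lists, each gene by the tested probe set whose mean log2 signal was highest. Limma called 0 members of any list in either direction, where it called 0 of 8168 genes (0%), and the median difference over all genes was -0.007 with 48.9% higher. At an unadjusted limma p under 0.05 there were 2 list genes, Stk39 and Cab39, against 2.35% of all genes.

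In the list of WNK, SPAK and cotransporter regulation 12 of 15 tested genes had a higher congenic mean, with a median of +0.18 (+0.10 without congenic sample 3). Cab39 encodes MO25 alpha, a scaffold that activates SPAK and the related kinase OSR1, and by the GRCr8 assembly it lies on chromosome 9, the chromosome of the introgressed segment. The sources used here do not give that segment's borders. Its signal was 467.0, 426.7 and 493.4 in congenic samples and 400.9, 291.9 and 297.9 in Dahl S samples, without overlap (log2 difference +0.50, SE 0.21, with an unadjusted limma p of 0.0370). The other 2 tested Cab39 probe sets differed by +0.41 and +0.03. Cul3, a ubiquitin ligase scaffold that acts on WNK kinases, is in the same list and also on chromosome 9, and its 2 tested probe sets overlapped between the strains (+0.13, SE 0.23, and +0.12, SE 0.25). The third list gene on that chromosome, Slc9a2, was too dim to test. None of the 8 members lies on chromosome 9 in that assembly.

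Sgk1, the aldosterone-induced kinase that acts on distal salt transport, gave 439.2, 241.7 and 573.3 in congenic samples and 297.1, 278.3 and 238.8 in Dahl S samples (+0.54, SE 0.30). Congenic sample 2 lay within the Dahl S range. The list had 2 genes without overlap, both higher in congenic samples, Cab39 and Ppp1r1a (protein phosphatase inhibitor 1, +0.18, SE 0.14), against 3.82% of all genes. Wnk4 (-0.27, SE 0.27) and Oxsr1, the kinase OSR1 (+0.02, SE 0.28), overlapped.

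Of 11 tested thick ascending limb genes 8 had a higher congenic mean (median +0.11, and +0.054 without Dahl S sample 3). After Kcnj1, the smallest unadjusted p values belonged to the tight junction protein Cldn10 (+0.22, SE 0.20) and the sodium pump subunit Atp1b1 (+0.17, SE 0.18). Of 10 tested distal convoluted and connecting tubule genes 9 had a higher congenic mean (median +0.14), but leaving out Dahl S sample 1 gave a median of +0.30 and leaving out congenic sample 1 gave -0.002. The smallest unadjusted p values there were those of the magnesium-permeable channel Trpm7 (+0.71, SE 0.40, with Dahl S sample 2 below the filter level), the sodium calcium exchanger Slc8a1 (-0.35, SE 0.24) and the calcium pump Atp2b1 (+0.57, SE 0.44). Each of these overlapped between the strains.

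In the SLC12 family 3 of 7 tested genes had a higher congenic mean (median -0.12). Leaving out congenic sample 1 brought that median to -0.027 and congenic sample 3 to -0.22. Leaving out Dahl S sample 1, 2 or 3 gave -0.25, -0.076 and -0.045. The potassium chloride cotransporter Slc12a7 gave 193.1, 150.4 and 168.8 in congenic samples and 225.9, 232.2 and 199.3 in Dahl S samples, all lower in congenic samples (-0.36, SE 0.19, with an unadjusted limma p of 0.0833). Slc12a9 (-0.63, SE 0.38) and Slc12a8 (+0.82, SE 0.50) overlapped. With each gene counted by 1 probe set, Slc12a7 was the 1 gene of the family without overlap on the lower side, against 3.79% of all genes. Slc12a2 AF051561_s_at was also lower without overlap, but it is not the probe set that stands for Slc12a2 in the list.

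**Figure D5:**
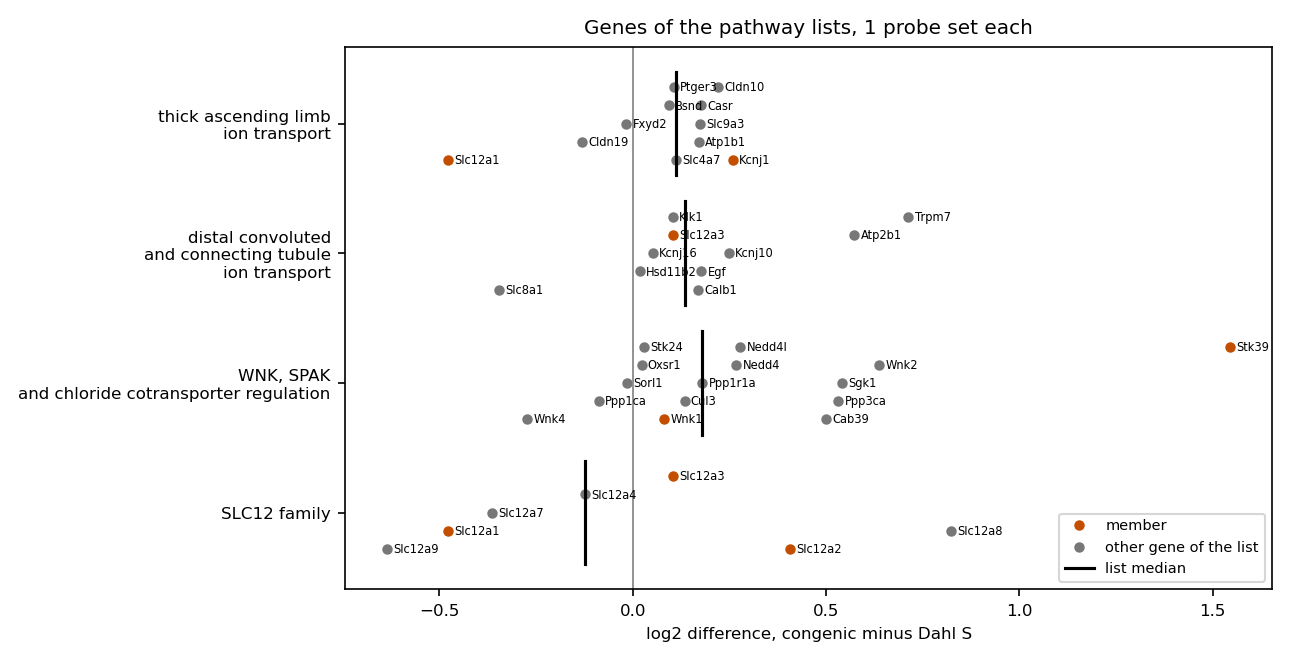
Log2 difference, congenic minus Dahl S, of the tested genes of the 4 pathway lists, 1 probe set each, with members in orange and list medians as black lines. Most regulatory genes lie right of 0 (12 of 15), Stk39 farthest at +1.54, and the SLC12 genes lie on both sides.

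Of the markers of other kidney cells 0 passed the adjusted threshold in limma, also with any 1 sample left out. At an unadjusted limma p under 0.05 there were 1 of 14 proximal tubule, 1 of 6 leukocyte and 3 of 8 smooth muscle and stroma markers. The share over all genes was 2.35%. Of 14 proximal tubule markers 12 had a higher congenic mean (median +0.13), and their summed signal was 64129.8 to 76941.8 in congenic samples and 61471.3 to 67334.2 in Dahl S samples. Collecting duct markers were higher in 5 of 8 (+0.11, but +0.20 without congenic sample 1 and +0.063 without Dahl S sample 1), with sums of 2616.1 to 3071.1 in congenic samples and 2380.9 to 2694.9 in Dahl S samples. Markers of podocytes and glomeruli were higher in 3 of 3 (+0.23, but +0.80 without congenic sample 3 and +0.53 without Dahl S sample 1), with sums of 523.8 to 590.2 in congenic samples and 256.7 to 459.6 in Dahl S samples. Leukocyte markers were lower in 5 of 6 (-0.41, and -0.24 without Dahl S sample 2), with sums of 3186.3 to 3386.2 in congenic samples and 3638.5 to 4481.4 in Dahl S samples. Smooth muscle and stroma markers were lower in 7 of 8 (-0.37), with sums of 2734.8 to 3238.0 in congenic samples and 3846.1 to 4402.2 in Dahl S samples. The sums of these last 3 groups did not overlap between the strains, but they are of linear signal, so the brightest markers weigh most. By single genes, 4 of 14 proximal tubule and 1 of 8 collecting duct markers were higher without overlap, against 3.82% of all genes. So were 1 of 7 endothelial markers and 1 of 3 podocyte and glomerulus markers, the latter being Podxl. Lower without overlap were 3 of 6 leukocyte and 3 of 8 smooth muscle and stroma markers, against 3.79%.

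Endothelial markers were higher in 4 of 7 (median +0.05, sums 925.1 to 1288.7 in congenic samples and 1035.9 to 1145.9 in Dahl S samples). Their median turned to -0.17 without congenic sample 2 and -0.11 without Dahl S sample 1. Leaving out congenic sample 1 gave +0.19, congenic sample 3 +0.03, and Dahl S sample 3 +0.16. Red cell genes were lower in 4 of 5 (-0.43, sums 9054.3 to 16953.8 in congenic samples and 11231.3 to 46890.4 in Dahl S samples). That direction rests on Dahl S sample 3, in which Hba-a1, an alpha globin, read 36676.3, against 11704.4, 9901.7 and 5917.3 in congenic samples and 7613.3 and 9870.9 in the other Dahl S samples. Without it all 5 red cell genes had a higher congenic mean (median +0.12). Of the adrenal cortex markers 1 was tested, Cyp21a1, at -0.01 (-0.34 to +0.49 with a sample left out). The sums of the thick ascending limb markers were 7371.1 to 8154.5 in congenic samples and 6584.8 to 8132.4 in Dahl S samples, and those of the distal convoluted tubule markers 765.7 to 1273.9 in congenic samples and 796.5 to 1039.3 in Dahl S samples, both overlapping. The part of other cell types in the member values was not tested.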

How the data were processed

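Total RNA of 6 kidney samples, 3 per strain, was hybridised to 3 array types, and the titles gave each sample's strain and number. The authors' deposited intensities are 1 value per probe set on a linear scale, with a mean near 150 after trimming 2% at each end of each array, from the values. The sources used here do not name the software behind them, and no further scaling was applied.

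Values below the 10th percentile of an array type (signals of 3.1 on type A, 6.8 on B and 4.9 on C) were raised to it and log2 was taken. Control probe sets (59 per type) were left out, and probe sets below the 40th percentile of mean log2 signal were not tested. The difference, congenic minus Dahl S, was fitted per array type in R 4.3.3 by limma 3.58.1 (lmFit, then eBayes with trend), with Benjamini-Hochberg adjustment over all types. The fit was tested on simulated data. Platform annotation gave 1 symbol for 18178 probe sets, and 18122 of these matched the GRCr8 gene table.

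Members, 4 pathway lists, marker lists and alternatives were chosen with earlier results of these data known. Named genes were all members, the 3 genes of each list with the smallest unadjusted p where none passed, and the 3 genes most correlated with Slc12a1, Slc12a3 and Stk39. Ppp1r1a, Wnk4, Oxsr1, Pvalb, Cul3, Slc9a2 and Hba-a1 were named after their values were seen. Alternatives covered the floor, filter, normalization, variance model, sample number, left-out samples, adjustment and threshold. Leaving samples out of the marker lists was added after seeing the data. Figures used matplotlib 3.10.9 in Python 3.11.15.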

Additional observations from a re-analysis of the deposited data

How the results depend on the processing

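No alternative gave a call: limma called 0 probe sets overall and 0 members under each of the 19 alternatives run, with 259 to 819 probe sets at an unadjusted p under 0.05. Of the 280 member values recomputed under an alternative, 267 kept their sign and 13 turned. This count is no measure of stability, because many alternatives cannot move a log2 difference. Those of filter, variance model, adjustment, threshold and sample number terms leave it as it was. The turns came from left-out samples and from quantile normalization. With each sample left out in turn, Slc12a1 ran from -1.06 to +0.66, Slc12a3 U10097_at from -0.10 to +0.43, Slc12a3 rc_AA965132_s_at from -0.53 to +0.65, Kcnj1 AF081366_s_at from -0.25 to +0.15, Stk39 AF068261_s_at from -0.97 to +0.23, Wnk1 rc_AA899126_s_at from -0.072 to +0.21, Wnk1 rc_AI227938_at from -0.082 to +0.17 and Umod from -0.024 to +0.16. Umod was -0.015 under quantile normalization, and Slc12a3 rc_AA965132_s_at was -0.29 without both samples numbered 1. The control ratios ran from -0.24 to +0.036 for GAPDH and -0.11 to +0.33 for beta-actin with a sample left out. The SLC12 family median was -0.36 with the filter at the 60th percentile, where 5 of its 7 genes were tested, and the medians of the other pathway lists moved by less than the spread between samples. Median scaling moved the median of all tested probe sets to +0.02.

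With sample number as a replicate block, limma called 0 probe sets, and 819 were at an unadjusted p under 0.05, against 391 without it. Log2 differences were the same, and Stk39 D88190_s_at had an SE of 0.43. The deviations of same-numbered samples correlated at 0.45, 0.08 and 0.18, and those of different-numbered samples at -0.30 to +0.15. The numbers were not taken to pair the samples, so any part shared by same-numbered samples stays in the error of the main fit. With a term for samples numbered 1, limma called 0 probe sets, and 704 were at an unadjusted p under 0.05. Stk39 D88190_s_at and Kcnj1 S78154_at then had unadjusted limma p of 0.0264 and 0.0465, against 0.0280 and 0.113 in the main fit. The number of arrays limits the precision: the median 95% interval of a member's log2 difference reached 0.85 to either side.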

Other observations

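Among probe sets too dim to test, Pvalb gave 30.6, 43.0 and 8.7 in congenic samples and 7.1, 9.3 and 11.0 in Dahl S samples, with congenic sample 3 within the Dahl S range. The neuronal potassium chloride cotransporter Slc12a5 stayed between 2.3 and 7.6 in all 6 samples. Of the tested genes, Slc12a8 read 120.0, 135.6 and 66.8 in congenic samples and 41.3, 104.0 and 45.8 in Dahl S samples. Slc12a9, also tested, read 105.3, 304.6 and 184.3 in congenic samples and 283.9, 348.8 and 223.0 in Dahl S samples.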
